A study of Mus musculus with 3 samples.

Results

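The genes described here are 42 mouse genes of the type I interferon response, selected by their gene symbols. All 42 were found among the 54532 genes of the deposited count and FPKM tables (FPKM, fragment counts scaled by gene length and library size), and all 42 had a mean FPKM of at least 1 over the libraries, as did 12406 genes in all. RNA was sequenced from 3 libraries, 1 per condition. MICFs are cardiac fibroblasts from the infarcted tissue of adult Myh6-mCherry mice, taken 5 days after myocardial infarction (MI) and kept in culture for 4 weeks without virus. In these mice the promoter of Myh6, the adult cardiac myosin heavy chain, drives a red reporter. GMTMS-iCMs are MICFs that received Gata4, Mef2c, Tbx5, Myocd and Sall4 on doxycycline-inducible lentiviruses. GMTMM-iCMs received Myocd and Mesp1 beside Gata4, Mef2c and Tbx5. Both cocktails were induced for 4 weeks with doxycycline at 1 µg per ml, the cells were sorted for mCherry, and 5 sorted samples were combined before RNA extraction, so each value is that of a mixture. Virus, sorting, the factors and, by the Y-linked counts below, the share of male cells distinguish both transduced libraries from MICFs. Their parts in any difference cannot be told apart. Whether MICFs received doxycycline or the medium used for induction is not given in the sources used here. No combining of samples is given for MICFs either, so these could also distinguish the libraries. With 1 library per condition there is no replicate to check a difference against, and no p-value was computed.

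Type I interferons, the alpha and beta interferons, are secreted by cells that detect foreign or misplaced nucleic acids. They bind a receptor made of Ifnar1 and Ifnar2, whose kinases Jak1 and Tyk2 phosphorylate Stat2. Stat2 acts with Irf9 in a complex that binds the interferon stimulated response element in the promoters of a large set of genes. The products of these genes detect, degrade or sequester viral RNA and proteins, and many are sensors and factors of the same pathway. Fibroblasts and macrophages both respond to and can produce interferon beta.

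Values given in threes stand in the order MICFs, GMTMS-iCMs and GMTMM-labelled library. The libraries held 11861773, 10624118 and 11904484 counts. A count of 0 allows up to 3 counts, between 0.252 and 0.282 CPM (counts scaled by the library total). Sall4, which is not in the GMTMM cocktail, had 1060 counts in the GMTMM-labelled library, against 1190 in GMTMS-iCMs and 0 in MICFs, and Mesp1 had 0 counts in all 3 libraries, so the factors of this library go against its label. Markers of cells other than fibroblasts and cardiomyocytes were abundant. All 12 macrophage markers were counted in every library, with a summed FPKM of 10680, 20669 and 9773, and Lyz2, a lysozyme of macrophages, alone reached 6135, 11353 and 5495 FPKM. The 8 fibroblast markers summed to 1383, 198 and 2580 FPKM and the 8 cardiomyocyte markers to 2.36, 779 and 277 FPKM. In RNA from a mixture, fewer cells of a type and less RNA per cell cannot be told apart. Y-linked genes summed to 0, 1630 and 1926 counts. Xist, a transcript of the inactive X chromosome, had 11855, 5279 and 1618 counts (45.9, 31.7 and 7.72 FPKM). Both kinds of transcript were thus counted in the transduced libraries. The part of all these differences in the interferon values was not tested.

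The interferon stimulated genes took a larger share of the RNA in both transduced libraries than in MICFs. Their counts made up 0.260% of the MICF library, 1.35% of GMTMS-iCMs and 0.838% of the GMTMM-labelled library. Their median FPKM was 8.91, 43.7 and 29.6, and their summed FPKM was 895, 4370 and 3022. In MICFs 24 of the 42 genes were under 10 FPKM and 2 were over 100 FPKM, whereas in GMTMS-iCMs 3 were under 10 FPKM and 13 over 100 FPKM. The GMTMM-labelled library had 3 genes under 10 FPKM and 7 over 100 FPKM. The genes over 100 FPKM in MICFs were Bst2, at 248, 315 and 348 FPKM in the 3 libraries, and Ifi27l2a, at 213, 238 and 310 FPKM.

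**Figure D1:**
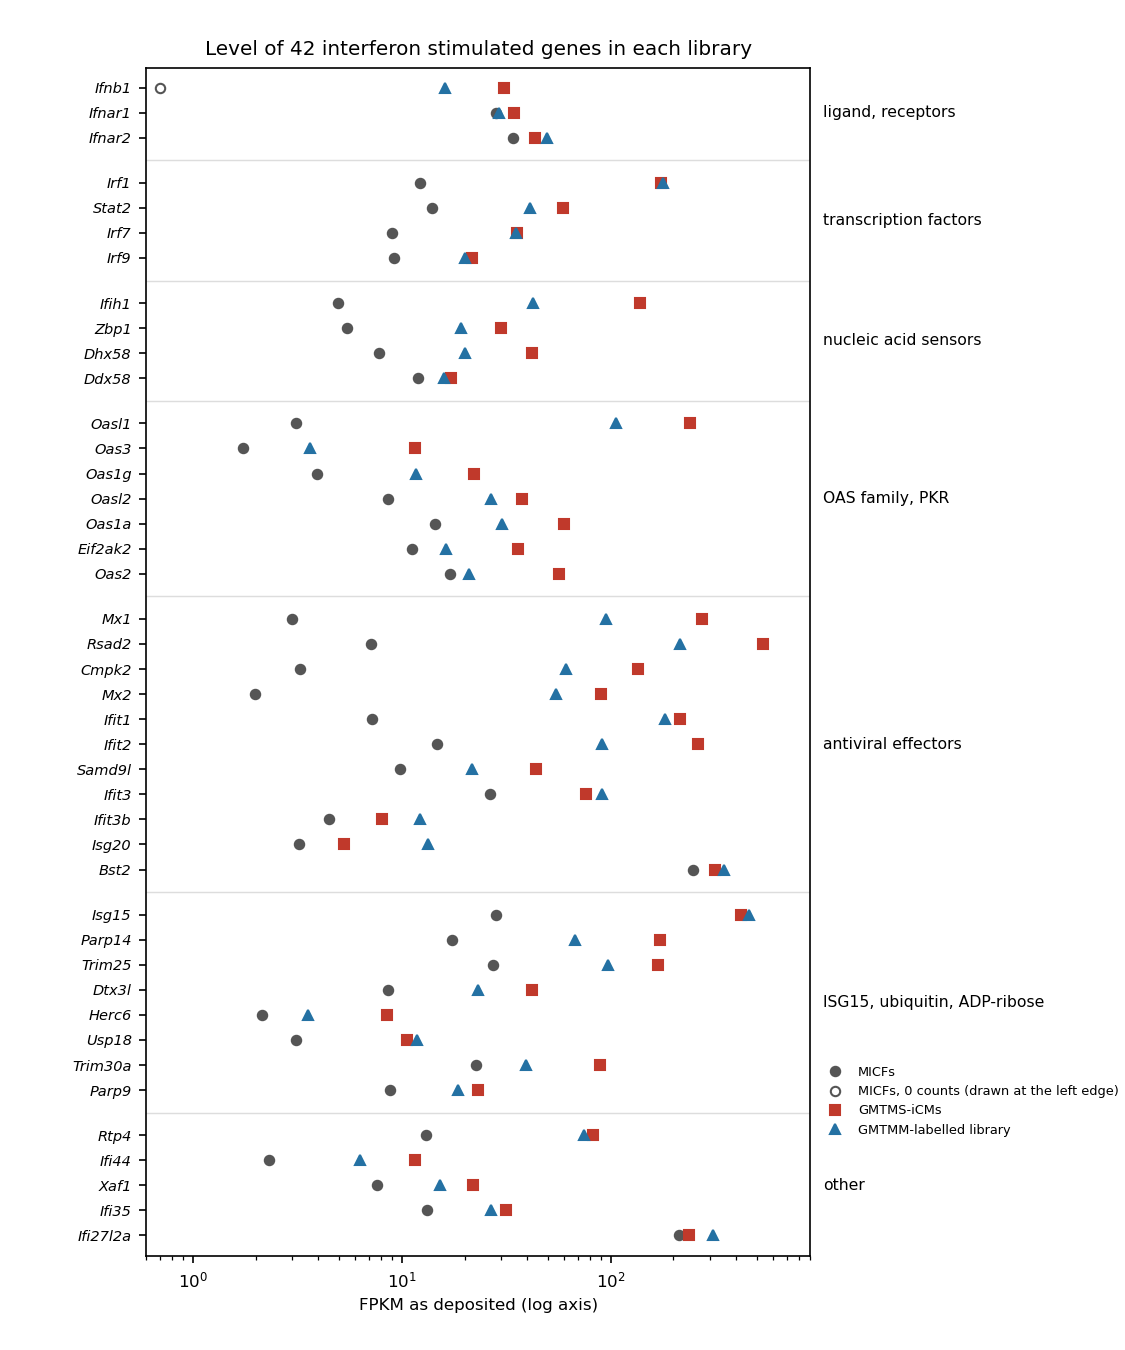
Deposited FPKM (horizontal log axis) of the 42 interferon stimulated genes in MICFs (grey circles), GMTMS-iCMs (red squares) and the GMTMM-labelled library (blue triangles), 1 library each and without error bars, grouped by role. In MICFs 24 genes lie under 10 FPKM, and Ifnb1, with 0 counts there, is drawn as an open circle at the left edge.

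For the comparison of libraries, FPKM were quantile-normalized over the 3 libraries and transformed as log2 (FPKM + 1), and a difference of over 1 was taken as the call of a higher or lower gene. In GMTMS-iCMs 34 of the 42 were higher than in MICFs and 0 lower. Among all 12406 genes, 11.5% were higher and 10.5% lower. The median difference was 1.82 for the 42 genes and -0.05 for all genes, and 18 of the 42 differed by over 2. In the GMTMM-labelled library, whose factors go against its label, 26 of the 42 were higher than in MICFs and 0 lower. Here 8.07% of all genes were higher and 4.69% lower, and the median difference was 1.29 for the 42 genes and -0.09 for all genes. Between the transduced libraries the differences were smaller. Of the 42 genes, GMTMS-iCMs had 12 higher and 1 lower than the GMTMM-labelled library, against 8.29% higher and 11.1% lower among all genes, with a median of 0.62 against 0.10 for all genes. Both comparisons with MICFs rest on the same MICF library.

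Expressed as a ratio of deposited FPKM, 41 of the 42 genes had counts in both libraries, and their median ratio of GMTMS-iCMs to MICFs was 4.35, from 1.12 for Ifi27l2a to 91.4 for Mx1. All 41 intervals lay above 1 (Clopper-Pearson 95% intervals on the counts, which here and below cover counting error only). The share of all genes with such intervals is not given here. The scale matters for the genes near 1. The FPKM had been scaled so that a read weighed more in GMTMS-iCMs than its library total would give, and by CPM of the library total 4 of the 42 genes were lower in GMTMS-iCMs and 38 higher. The 4 were Ifi27l2a, Bst2, Ifnar1 and Ifnar2, which changed sign among 7 scales. The call of a higher gene held on all 7 scales for 32 genes in GMTMS-iCMs and for 26 in the GMTMM-labelled library.

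**Figure D2:**
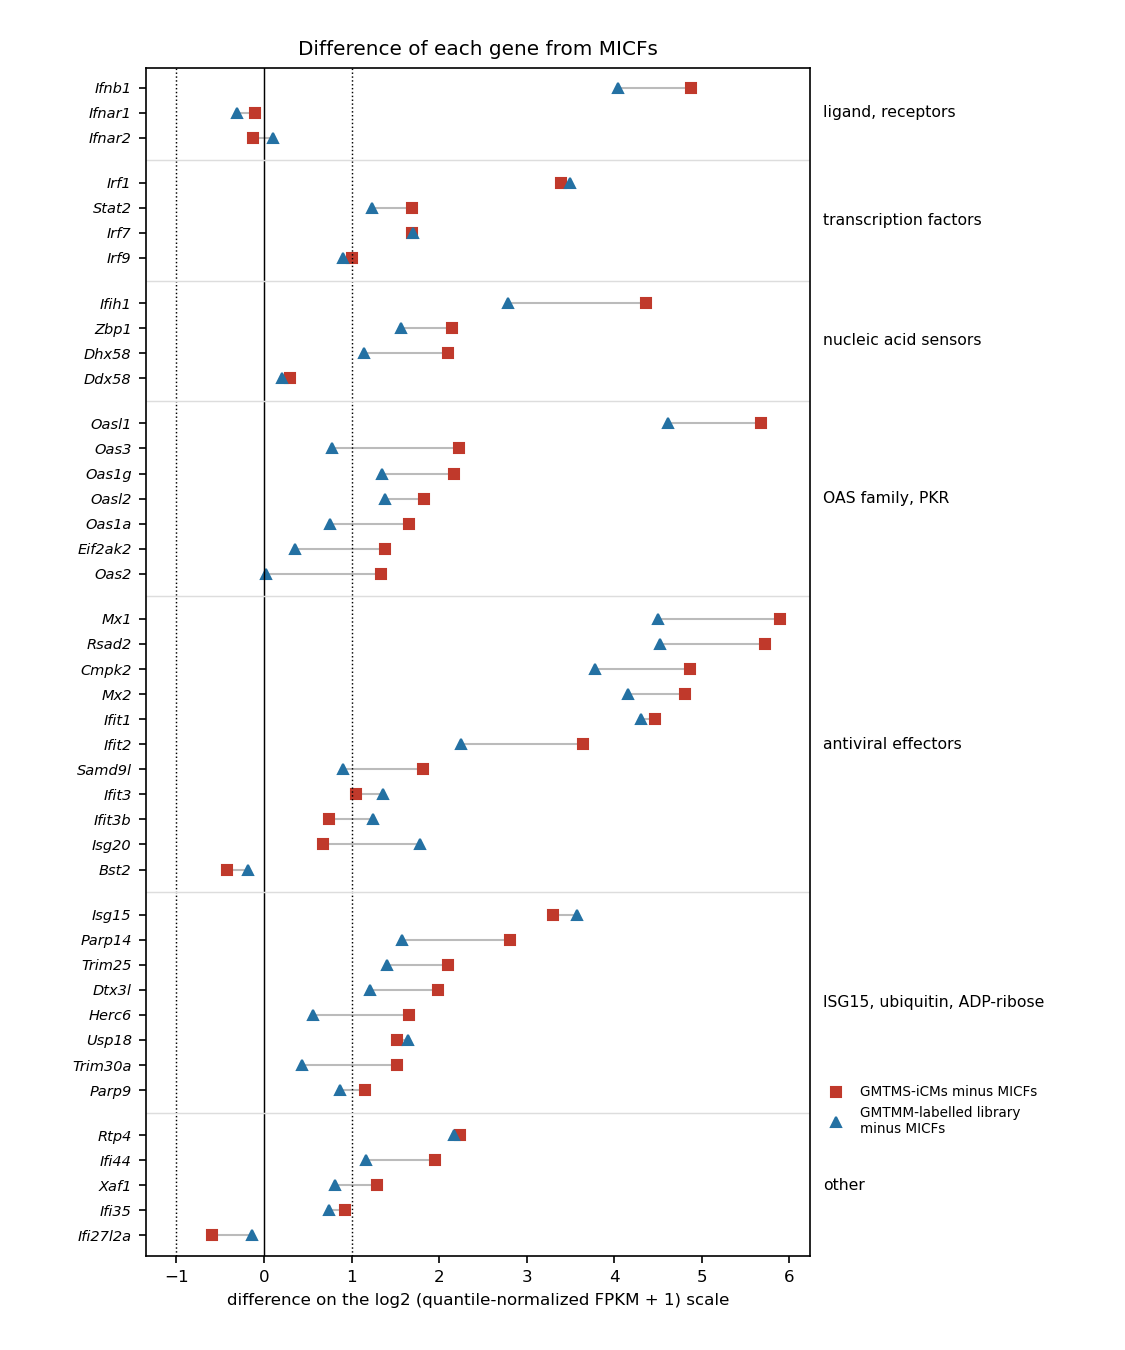
Difference from MICFs on the log2 (quantile-normalized FPKM + 1) scale for GMTMS-iCMs (red squares) and the GMTMM-labelled library (blue triangles), 1 library each, with a grey line joining the values of a gene and dotted lines at -1 and 1. In GMTMS-iCMs 34 of the 42 genes lie right of the line at 1, and no gene lies left of the line at -1.

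The promoters of the interferon stimulated genes were searched for the core of the response element. The RefSeq promoter table of GRCm38.p6 (250 bases before to 50 bases after the start) had an entry for 32 of the 42 genes, and Mx1, Mx2, Oas2, Dhx58, Usp18, Ifi27l2a, Zbp1, Rtp4, Parp9 and Parp14 had none. The core searched on both strands was GAAA, any 2 bases and GAAA. On the opposite strand it reads TTTC, any 2 bases and TTTC, and overlapping matches were counted. It was found in 14 of the 32 genes (43.8%), against 3.99% of all 27025 genes of the table and 4.02% of the 8834 genes with a mean FPKM of at least 1. The gamma activated site, searched as TTC, any 3 bases and GAA, was found in 9 of the 32 genes (28.1%) and in 9.55% of all genes of the table. The 14 genes with a response element match had a median difference between GMTMS-iCMs and MICFs of 1.67, and the 18 genes without a match had 1.82. Below are stretches of 5 genes, 60 bases each, chosen because they range from the largest differences among the genes with a match to Bst2, which was not called in any comparison, and because the pair Ifit3 and Ifit3b shares one. They run 5′ to 3′ on the strand of the gene, from 25 bases before the match nearest to the start, and capitals mark every match.
Rsad2, minus strand, chr12:26456538-26456597: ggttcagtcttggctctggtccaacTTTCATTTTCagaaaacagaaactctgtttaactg
Ifit1, plus strand, chr19:34640779-34640838: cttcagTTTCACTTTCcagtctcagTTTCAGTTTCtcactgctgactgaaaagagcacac
Isg15, minus strand, chr4:156200850-156200909: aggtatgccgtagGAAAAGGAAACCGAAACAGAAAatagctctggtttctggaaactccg
Ifit3, plus strand, chr19:34583382-34583441: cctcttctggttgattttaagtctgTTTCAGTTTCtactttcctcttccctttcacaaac
Bst2, minus strand, chr8:71537562-71537621: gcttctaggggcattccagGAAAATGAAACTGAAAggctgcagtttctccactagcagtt
The same 60 bases as in Ifit3 lie before the start of its neighbour Ifit3b. A match is a description of the letters and no measure of binding.

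Among the ligand and its receptors, the ligand was counted in the transduced libraries alone. Ifnb1, interferon beta (ENSMUSG00000048806, chr4:88522025-88522774), had 0 counts in the MICF library against 215 in GMTMS-iCMs and 142 in the GMTMM-labelled library. Set against 3 counts in MICFs, its FPKM was at least 111-fold higher in GMTMS-iCMs and at least 58.3-fold higher in the GMTMM-labelled library, and it was 1.90-fold higher (1.53 to 2.37) in GMTMS-iCMs than in that library. At 30.9 FPKM Ifnb1 ranked 1745 among all genes in GMTMS-iCMs, at 16.2 FPKM 3083 in the GMTMM-labelled library. The receptor chains were not called in any comparison. Ifnar1 had 2429, 1912 and 2022 counts (28.4, 34.7 and 29.1 FPKM), and Ifnar2 had 1633, 1344 and 1937 counts (34.1, 43.5 and 49.8 FPKM). Their differences from MICFs were -0.11 and -0.12 in GMTMS-iCMs and -0.31 and 0.10 in the GMTMM-labelled library, within the called difference of 1 in every case, and for Ifnar1 the sign changed with the scale in both comparisons. Of the exon bases of Ifnar2, 9.46% lie in Gm21970 on the same strand, so part of its counts could belong to that gene.

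No interferon ligand other than interferon beta had over 12 counts in any library. A list of 21 ligand genes contained 13 interferon alpha genes, close copies of each other between which reads could be split, of which 3 were counted. Ifna1 had 0, 1 and 0 counts, Ifna2 had 0, 4 and 1, and Ifna4 had 0, 3 and 0. Ifnab had 0, 3 and 4 counts and Ifnz 0, 0 and 1. These values lie near the limit of 3 counts, and no ratio of them is given. Ifng, the type II interferon made by T and natural killer cells, had 0, 0 and 12 counts.

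The 4 transcription factors of the set were all higher in GMTMS-iCMs, at a median difference of 1.69 from MICFs, against 11.5% of all genes. In the GMTMM-labelled library 3 of 4 were higher, against 8.07% of all genes. Irf1, which binds interferon-responsive promoters and is also induced by interferon gamma, had 699, 6456 and 8272 counts (12.2, 175 and 178 FPKM). This was 14.3-fold (13.2 to 15.5) and 14.6-fold (13.5 to 15.8) over MICFs, and the transduced libraries did not differ beyond counting error (ratio 0.98, 0.95 to 1.01). Irf7, which amplifies interferon production, had 489, 1245 and 1553 counts and was 3.94-fold and 3.91-fold higher than in MICFs. Stat2 had 1194, 3253 and 2852 counts (14.0, 59.1 and 41.2 FPKM), a difference of 1.69 in GMTMS-iCMs and 1.24 in the GMTMM-labelled library. Irf9, the DNA-binding partner of Stat2, had 713, 1089 and 1263 counts and lay at the threshold, with differences of 1.01 and 0.90. It passed on some of the 7 scales only.

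The rest of the signalling chain was less uniform. Of the 13 receptors, kinases and signal transducers, which include Ifnar1, Ifnar2, Stat2 and Irf9, 4 were higher and 0 lower in GMTMS-iCMs than in MICFs, against 11.5% and 10.5% of all genes. In the GMTMM-labelled library 3 were higher and 0 lower, against 8.07% and 4.69% of all genes. Jak2, a kinase of the interferon gamma and cytokine receptors, had 830, 4134 and 4992 counts, a difference of 2.56 in both libraries. Stat3 had 2824, 6216 and 7433 counts, with differences of 1.33 and 1.31. The kinases of the type I receptor moved less. Jak1 had 4555, 5580 and 5622 counts (0.39 and 0.12), and Tyk2 had 1124, 763 and 621 counts (-0.06 and -0.63). Of the other receptor chains, Ifngr1 had 2327, 1298 and 1890 counts (-0.76 and -0.51), Ifngr2 1539, 1375 and 1405 (0.07 and -0.18), Il10rb 1739, 1362 and 1007 (-0.14 and -0.84) and Ifnlr1 17, 1 and 4 (-0.31 and -0.26).

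Genes that damp the signal were called higher more often than lower. Of 10 inhibitors, 5 were higher and 1 lower in GMTMS-iCMs than in MICFs, against 11.5% and 10.5% of all genes. In the GMTMM-labelled library 4 were higher and 1 lower, against 8.07% and 4.69% of all genes. Socs3, a suppressor of cytokine signalling that is induced by STAT factors, had 1667, 14227 and 11676 counts, differences of 3.03 and 2.57. Socs1, which inhibits the JAK kinases of interferon receptors, had 33, 293 and 687 counts, differences of 2.73 and 3.51. Ptpn2, a phosphatase of JAK and STAT proteins, had 231, 799 and 957 counts (2.11 and 2.07). The lowest values were those of Pias3, with 384, 94 and 138 counts (-1.05 and -1.02), and Ptpn11, with 1828, 1347 and 1678 counts (-0.08 and -0.09).

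The cytoplasmic sensors of nucleic acids split. Of 4, 3 were higher in each transduced library than in MICFs, against 11.5% of all genes in GMTMS-iCMs and 8.07% in the GMTMM-labelled library. Ifih1, also known as MDA5, which recognizes long double-stranded RNA, had 584, 10487 and 4076 counts (4.97, 138 and 42.7 FPKM). It was 27.8-fold higher (25.6 to 30.3) in GMTMS-iCMs and 8.60-fold higher (7.88 to 9.39) in the GMTMM-labelled library than in MICFs. Between the transduced libraries it was 3.24-fold higher (3.12 to 3.36) in GMTMS-iCMs, the largest such ratio of the 42 genes. Ddx58, or RIG-I, the sensor of short RNA with a triphosphate end, had 1221, 1127 and 1312 counts (12.0, 17.2 and 15.9 FPKM) and was 1.43-fold (1.32 to 1.55) and 1.32-fold (1.22 to 1.43) over MICFs, with differences of 0.30 and 0.20. Both sensors signal through Mavs, yet in MICFs the order was Ddx58 above Ifih1 per length, and in both transduced libraries it was Ifih1 above Ddx58. Dhx58, a regulator of both, differed from MICFs by 2.11 and 1.14, and Zbp1, a sensor of Z-form nucleic acids, by 2.15 and 1.57.

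A wider list of 23 sensors and relay proteins outside the 42 genes had 9 higher and 0 lower in GMTMS-iCMs than in MICFs, against 11.5% and 10.5% of all genes. In the GMTMM-labelled library 4 were higher and 3 lower, against 8.07% and 4.69% of all genes. The largest differences in GMTMS-iCMs were those of Mb21d1, the DNA sensor cGAS (97, 467 and 259 counts, differences of 2.34 and 1.30), Ifi204 (964, 4254 and 2811 counts, 2.30 and 1.46) and the adaptor Traf3 (537, 1863 and 1029 counts, 2.12 and 1.05). The lowest values were those of Mavs itself, with 786, 321 and 255 counts (-0.81 and -1.42), and Irf3, the factor that switches on Ifnb1 after sensing, with 679, 293 and 374 counts (-0.68 and -0.70). Between the transduced libraries 8 of the 23 genes were higher in GMTMS-iCMs and 0 lower, against 8.29% and 11.1% of all genes. All 12 macrophage markers had a difference above 0 in the same comparison, 6 of them over 1 (median 0.99), and their part in the list was not tested.

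The oligoadenylate synthetases make the messenger that activates RNase L, and Eif2ak2, or PKR, is the kinase that halts translation on double-stranded RNA. All 7 genes of this group were higher in GMTMS-iCMs than in MICFs (median difference 1.83), against 11.5% of all genes. In the GMTMM-labelled library 3 of 7 were higher (median 0.78), against 8.07% of all genes. Oasl1, a synthetase-like protein without synthetase activity, had 117, 5786 and 3220 counts (3.12, 239 and 106 FPKM), 76.6-fold higher (63.8 to 92.8) in GMTMS-iCMs and 33.9-fold higher (28.2 to 41.1) in the GMTMM-labelled library. Oas2 had 1096, 2348 and 1097 counts (17.1, 56.8 and 21.1 FPKM), a difference of 1.33 in GMTMS-iCMs and 0.02 in the GMTMM-labelled library, where its sign depended on the scale. The other members differed in GMTMS-iCMs by 2.23 (Oas3), 2.17 (Oas1g), 1.83 (Oasl2), 1.65 (Oas1a) and 1.38 (Eif2ak2). In the GMTMM-labelled library the corresponding values were 0.78, 1.35, 1.38, 0.76 and 0.35, and those of Oas3 and Oas1a passed 1 on some scales. Oas1a and Oas1g are near copies, with 57.6% and 54.7% of their 50-base words found in the other, so reads could be split between them either way. Summed, the pair was 4.48-fold higher (4.06 to 4.96) in GMTMS-iCMs and 2.30-fold higher (2.07 to 2.56) in the GMTMM-labelled library.

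The antiviral effectors ranged from Mx1, with the largest difference between GMTMS-iCMs and MICFs on the log2 scale, to genes that were not called. Of 11, 8 were higher in GMTMS-iCMs (median 3.64) and 9 in the GMTMM-labelled library (median 2.25), against 11.5% and 8.07% of all genes. Mx1, a GTPase that traps viral nucleocapsids (chr16:97447035-97462907), had 163, 9616 and 4183 counts (2.99, 274 and 94.6 FPKM). It was 91.4-fold higher (78.3 to 107) in GMTMS-iCMs and 31.6-fold higher (27.0 to 37.2) in the GMTMM-labelled library than in MICFs. Rsad2, or viperin, which makes a chain-terminating nucleotide, went from 446 counts to 21652 and 10839 and from 7.15 to 538 and 214 FPKM, the highest level of any of the 42 genes in GMTMS-iCMs, with rank 74 among all genes. Cmpk2, the nucleotide kinase encoded next to it, differed by 4.87 and 3.78. Mx2, which the annotation lists as a polymorphic pseudogene, differed by 4.81 and 4.16. Ifit1, which binds foreign RNA ends, and its relatives Ifit2, Ifit3 and Ifit3b differed by 4.47, 3.64, 1.05 and 0.74 in GMTMS-iCMs. In the GMTMM-labelled library they differed by 4.30, 2.25, 1.36 and 1.24. Samd9l, a restriction factor of poxviruses, differed by 1.81 and 0.90.

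Bst2, or tetherin, which holds budding virus at the cell surface, had 3228, 2641 and 3666 counts (248, 315 and 348 FPKM). It was abundant in every library, differed by -0.43 and -0.18 from MICFs, and changed sign with the scale in both comparisons, and its promoter stretch above carries overlapping matches. Isg20, a 3′ exonuclease, and Ifit3b were called higher than in MICFs in the GMTMM-labelled library and not in GMTMS-iCMs. For Ifit3b the FPKM ratio of GMTMS-iCMs to that library was 0.66 (0.54 to 0.80). Isg20 had 86, 92 and 292 counts (3.21, 5.33 and 13.4 FPKM), a difference of 0.68 in GMTMS-iCMs and 1.78 in the GMTMM-labelled library. At -1.10 it was the single gene called lower in GMTMS-iCMs than in that library, 2.52-fold (1.99 to 3.23) by FPKM.

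All 8 genes of the ISG15 and ADP-ribose group were higher in GMTMS-iCMs (median 1.82), against 11.5% of all genes. In the GMTMM-labelled library 5 of 8 were higher (median 1.31), against 8.07% of all genes. Isg15 itself, a ubiquitin-like protein that is conjugated to other proteins, had 308, 2944 and 4071 counts (28.3, 419 and 461 FPKM), 14.8-fold (13.2 to 16.7) and 16.3-fold (14.5 to 18.3) over MICFs, and ranked 97 and 77 among all genes. Its promoter stretch above holds 3 overlapping matches. Parp9 had 618, 1055 and 1060 counts (8.82, 23.3 and 18.6 FPKM), the smallest difference of the group in GMTMS-iCMs at 1.15, and 0.86 in the GMTMM-labelled library, and it passed on some scales only in both. Parp14 and Dtx3l, which act with Parp9 in ADP-ribosylation, differed by 2.81 and 1.99 in GMTMS-iCMs and by 1.57 and 1.21 in the GMTMM-labelled library. Usp18, the protease that removes Isg15 and inhibits the receptor, differed by 1.52 and 1.64, and Herc6, the mouse ligase for Isg15, by 1.65 and 0.56. Trim25, a ubiquitin ligase that activates RIG-I, differed by 2.10 and 1.40 and Trim30a by 1.52 and 0.43. Part of the sequence of Herc6 (23.8% of its 50-base words) is found in Gm45193, and Parp9 and Dtx3l overlap on opposite strands, so their counts are uncertain.

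Of the 5 remaining genes, 3 were higher in GMTMS-iCMs than in MICFs and 2 in the GMTMM-labelled library, against 11.5% and 8.07% of all genes. Rtp4, a chaperone of membrane receptors, had 403, 1627 and 1861 counts (13.1, 82.2 and 74.8 FPKM), differences of 2.24 and 2.17, with 13.9% of its exon bases in Gm45338. Ifi27l2a, a mitochondrial protein, had 1416, 1022 and 1676 counts (213, 238 and 310 FPKM) and differed by -0.59 and -0.14, with a sign that depended on the scale. Ifi44 differed by 1.96 and 1.17, Xaf1, which is linked to apoptosis, by 1.29 and 0.81, and Ifi35 by 0.93 and 0.74. Of the exon bases of Ifi35, 16.8% lie in Gm11626 on the other strand.

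Genes that lie side by side did not all differ to the same extent. Within 200 kb of each other lay 19 of the 42 genes, in 7 clusters. In the Ifit cluster (chr19:34550694-34650009) Ifit1 was 29.5-fold (26.1 to 33.4) and Ifit2 17.7-fold (16.5 to 19.0) over MICFs in GMTMS-iCMs, whereas Ifit3 and Ifit3b, between them, were 2.88-fold (2.62 to 3.17) and 1.79-fold (1.40 to 2.28). Ifit3 and Ifit3b share 51.2% and 45.0% of their 50-base words, and summed they were 2.70-fold higher (2.47 to 2.95), still below both outer genes. Ifit1 shares 7.13% of its words with Ifit1bl2, and Mx1 and Mx2 share 4.77% and 6.55% of theirs. In the pair on chromosome 5, Oasl1 was 76.6-fold and Oasl2 4.35-fold higher (4.01 to 4.72). Mx1 and Mx2, at 91.4-fold and 45.2-fold (37.1 to 55.5), and Rsad2 and Cmpk2, at 75.2-fold (68.5 to 82.8) and 41.8-fold (36.2 to 48.4), were pairs with large ratios in both genes, and Ifnar2 and Ifnar1 a pair with ratios of 1.28 and 1.22. In the GMTMM-labelled library Ifit1 and Ifit2 were 25.2-fold and 6.12-fold over MICFs and Ifit3 and Ifit3b 3.44-fold and 2.72-fold.

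**Figure D3:**
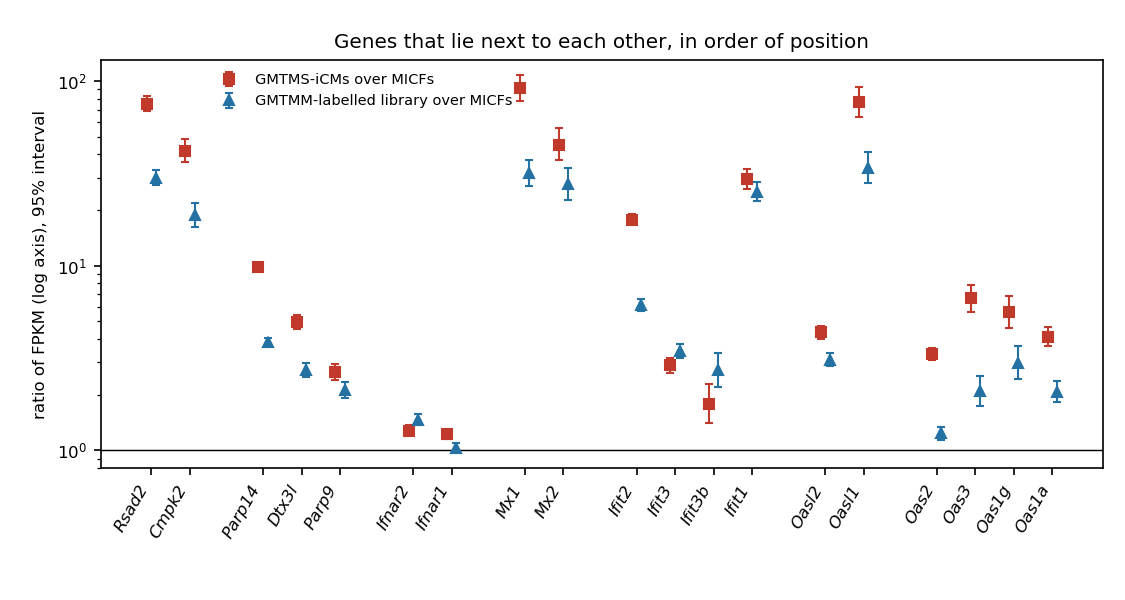
Ratio of FPKM to MICFs (vertical log axis) for the 19 genes that lie within 200 kb of another of the 42 genes, in order of position within each of 7 clusters, in GMTMS-iCMs (red squares) and the GMTMM-labelled library (blue triangles). Bars are 95% Clopper-Pearson intervals for counting error, 1 library each. Ifit3 and Ifit3b, at 2.88-fold and 1.79-fold in GMTMS-iCMs, lie below Ifit1 at 29.5-fold.

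Between the transduced libraries, the 12 genes called higher in GMTMS-iCMs were Ifih1 (1.58), Oas3 (1.45), Mx1 (1.40), Ifit2 (1.40), Oas2 (1.31), Parp14 (1.24), Rsad2 (1.20), Herc6 (1.09), Trim30a (1.09), Cmpk2 (1.09), Oasl1 (1.06) and Eif2ak2 (1.03). By ratio of FPKM, 30 of the 42 intervals lay above 1, 7 below 1, and 5 held 1, and the shares over all genes are not given here. The roles differed in their medians. The 4 transcription factors had a median difference of 0.05, with 0 called. The 7 genes of the synthetase group, PKR included, had 1.03, with 4 called higher. Of all genes, 8.29% were higher and 11.1% lower, so 0 called of 4 genes is near the share of all genes. Isg15 (-0.27), Ifit3 (-0.30), Ifit3b (-0.50) and Usp18 (-0.12) were among the 10 genes with a difference below 0. The sign of Irf7, Irf9, Ddx58 and Rtp4 in this comparison depended on the scale.

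**Figure D4:**
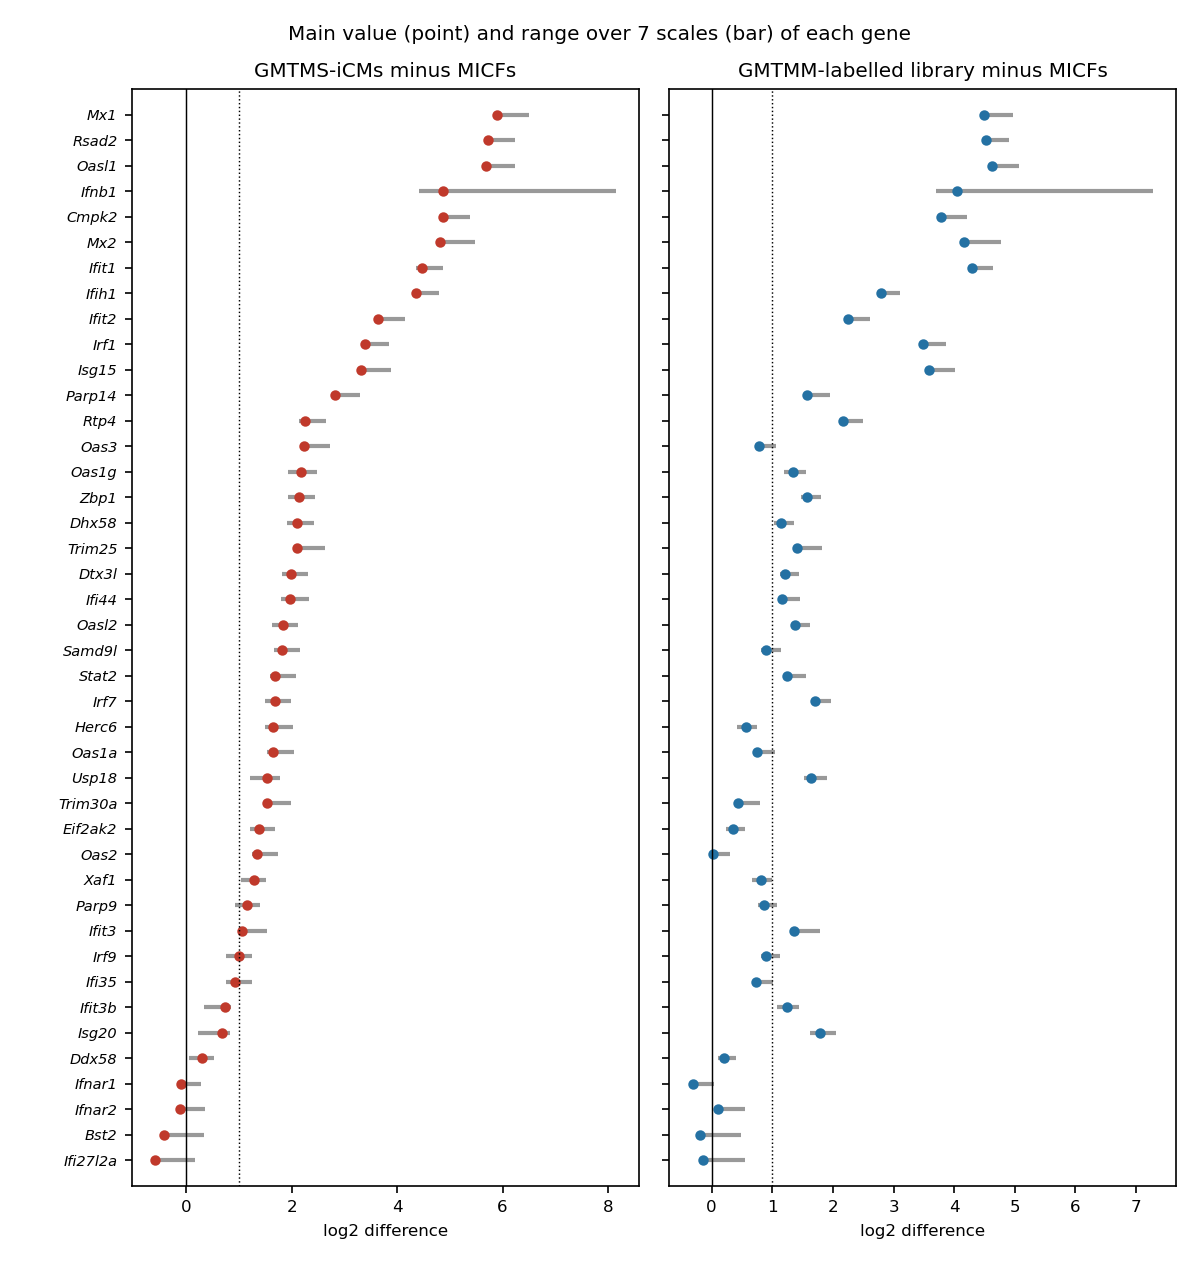
Log2 difference from MICFs of each of the 42 genes in GMTMS-iCMs (left) and the GMTMM-labelled library (right), ordered by the value in GMTMS-iCMs. The point is the value on the quantile-normalized scale and the bar its range over 7 scales, with a dotted line at 1, and 32 genes in the left panel and 26 in the right lie above 1 on all 7 scales.

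Other interferon stimulated genes, 45 in a separate list that holds none of the 42, were examined in the same way. In GMTMS-iCMs 19 of 45 were higher than in MICFs and 0 lower (median 0.83), against 11.5% and 10.5% of all genes. In the GMTMM-labelled library 11 were higher and 0 lower (median 0.37), against 8.07% and 4.69% of all genes. Cxcl10, a chemokine for T cells, had 44, 10253 and 6761 counts, differences of 7.48 and 6.70. Ifi205 had 85, 2759 and 3152 counts (4.77 and 4.69) and Slfn2 1044, 13755 and 9297 (3.60 and 2.95). The lowest values were those of the membrane protein Ifitm3, with 4764, 3864 and 7266 counts (-0.50 and 0.26), and Lgals9, with 1798, 1277 and 1604 counts (-0.40 and -0.38).

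Markers of other cell types were set beside these values. Macrophage markers differed between GMTMS-iCMs and MICFs by a median of 0.27, with 2 of 12 higher, against 11.5% of all genes. They differed by -0.66 between the GMTMM-labelled library and MICFs, with 0 higher and 2 lower, against 8.07% and 4.69% of all genes. These values depend on the scale. By ratio of deposited FPKM all 12 were above 1 in GMTMS-iCMs, from 1.64 for Tyrobp to 2.97 for Ptprc, and in the GMTMM-labelled library they ranged from 0.733 for Csf1r to 1.24 for Itgam. Their part in the interferon values was not tested. The 6 markers of plasmacytoid dendritic cells, the main source of interferon alpha in blood, summed to 2.90, 13.2 and 4.61 FPKM, and Cox6a2 alone made up 2.56, 12.0 and 3.78 FPKM of these sums. The other 5 were under 1 FPKM in every library, and Siglech, the most specific of them, had 1, 9 and 4 counts. The 6 neutrophil markers summed to 11.2, 42.8 and 17.1 FPKM. Csf3r, a receptor that macrophages can also carry, had 563, 1435 and 675 of their 577, 1435 and 700 counts, and S100a9, Ly6g and Retnlg had 0 counts in all 3 libraries. The 6 endothelial markers summed to 394, 11.4 and 303 FPKM.

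**Figure D5:**
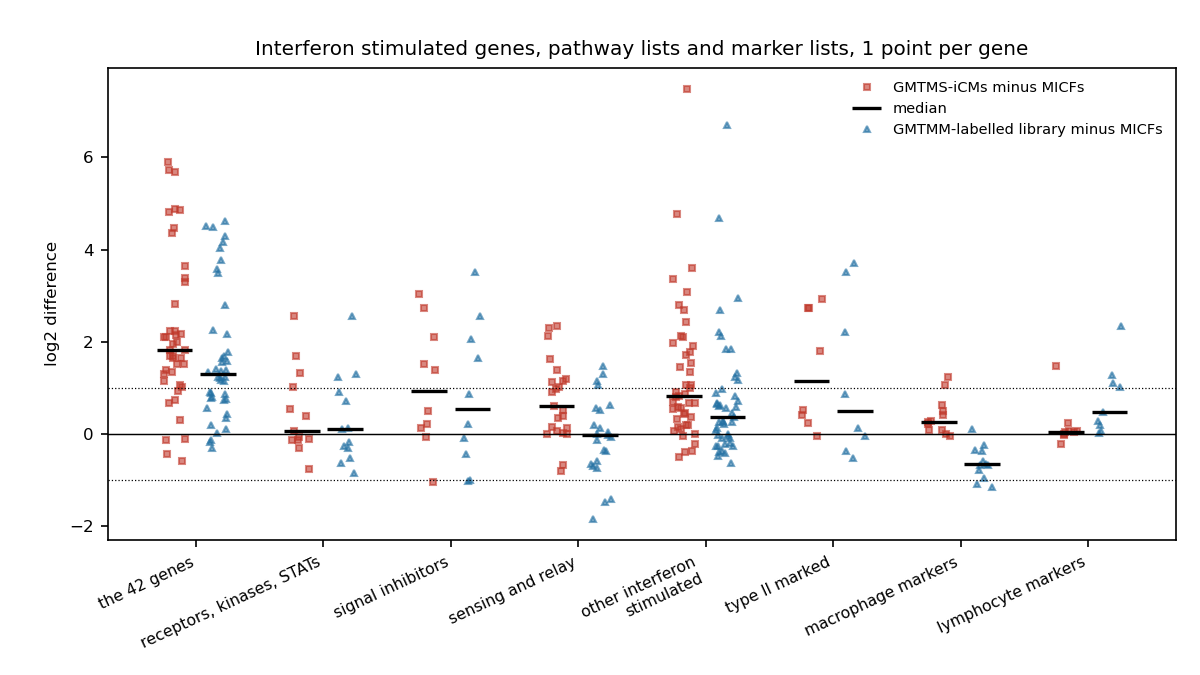
Log2 difference from MICFs (vertical axis) of the 42 genes, of 5 pathway lists and of the macrophage and lymphocyte markers in GMTMS-iCMs (red squares) and the GMTMM-labelled library (blue triangles), 1 point per listed gene, including genes under 1 FPKM and genes of the 42 that a list holds. Black bars are medians and dotted lines lie at -1 and 1, and the median of the 42 genes in GMTMS-iCMs is 1.82. That of the macrophage markers is 0.27 on this scale, and their ratios of deposited FPKM are 1.64 to 2.97.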

How the data were processed

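Total RNA of 3 mouse libraries was sequenced as paired reads. The authors deposited a count of each gene, without normalization, and FPKM for each gene. The submitters' processing notes name HISAT2 2.0.5 and mm9, whereas the identifiers and coordinates of all 42 genes equalled those of GENCODE M21 on GRCm38, which are used here. How reads were counted, whether by strand, and what became of reads matching several genes is not given in the sources used here. The library sizes behind the FPKM the authors deposited were 14389264 (MICFs), 9287868 (GMTMS-iCMs) and 11680913 (GMTMM-labelled library), equal to the DESeq2 size factors (1.26, 0.811 and 1.02) times the geometric mean of the totals. The MICF column carries another abbreviation and was matched because the other columns name the cocktails.

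FPKM were quantile-normalized over the 3 libraries (ties averaged) and transformed as log2 with a pseudocount of 1, the order of the study's methods. Lists were counted over all their genes, and the background was genes with a mean FPKM of at least 1. Ratios of FPKM carry Clopper-Pearson 95% intervals on the counts, with a floor of 3 counts per library. Alternatives were log2 before normalization, no quantile normalization, a pseudocount of 0.1, TMM log2 CPM (prior count of 2), CPM of the library total, DESeq2 size factors, no filter, leaving out near copies and a difference over 2. Normalization without the GMTMM-labelled library and the sums of near-identical pairs were chosen after seeing the data. All 42 genes may be named. Counts are given for the ligand, the receptors, the transcription factors and the largest and smallest difference of every other role, and of the pathway lists for ligands with a count, receptors, kinases and signal transducers, and the 3 highest and 2 lowest differences of GMTMS-iCMs from MICFs among genes with over 10 counts. One gene of these lists is not reported here. Isg20 was singled out after its values were seen. The genes and lists were chosen with earlier results of these data known. Sequence shared between genes was measured by cutting the longest transcript of each gene into 50-base words and looking these up in the transcripts of every other gene. The steps were tested on simulated data. The tools were R 4.3.3 with edgeR 4.0.16 and DESeq2 1.42.0, and Python 3.11.15 with SciPy 1.17.1, pandas 2.3.3, numpy 2.4.6 and, for the plots, matplotlib 3.10.9.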

Additional observations from a re-analysis of the deposited data

How the results depend on the processing

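No paired analysis was possible because the labels give 1 library to each condition, and for the same reason no library could be left out of a group. The number of genes higher by over 1 ranged over the scalings from 32 to 35 in GMTMS-iCMs against MICFs, from 26 to 32 in the GMTMM-labelled library against MICFs and from 10 to 14 in GMTMS-iCMs against the GMTMM-labelled library. The median difference of GMTMS-iCMs from MICFs, 1.82 with a counting interval of 1.70 to 1.94, left that interval with no quantile normalization (2.00), a pseudocount of 0.1 (1.97), TMM (2.05), CPM of the library total (1.65) and DESeq2 size factors (2.13). That of the GMTMM-labelled library, 1.29 (1.11 to 1.48), left it with TMM (1.53) and DESeq2 size factors (1.56). A difference over 2 was reached by 18 genes in GMTMS-iCMs, by 12 in the GMTMM-labelled library against MICFs, and by 0 higher and 0 lower between the transduced libraries. By CPM of the library total the median of all genes shifted by -0.39 in GMTMS-iCMs and by -0.24 in the GMTMM-labelled library. Without 8 genes that have near copies, 28, 21 and 10 of the other 34 were higher in the 3 comparisons. With near-identical pairs summed, the counts were 33, 24 and 12 of 40. Normalized without the GMTMM-labelled library, GMTMS-iCMs had 33 of the 42 genes higher and a median of 1.79 against MICFs. Among values of single genes, 459 stayed within their counting interval, 297 moved and 0 of the called values changed sign. Differences of genes under about 10 counts, such as the alpha interferons, were limited by depth, and no value has an error between cultures or animals.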

Other observations

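The genes of the lymphocyte and Toll-like receptor paragraphs were singled out after their values were seen. The GMTMM-labelled library held lymphocyte transcripts that the other libraries had at or near the limit of 3 counts. In the order MICFs, GMTMS-iCMs and GMTMM-labelled library, Cd3e had 4, 4 and 57 counts. Cd3g had 5, 4 and 53, Cd8a 1, 1 and 63, and Nkg7, a granule protein of cytotoxic cells, 4, 1 and 62. Over 10 counts were reached by 6 of 9 lymphocyte markers in that library and by 1 of 9 in each other library, where it was Cd4, which macrophages can also carry (241, 508 and 229 counts). Ifng, with 12 counts, was counted in the same library alone.

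Genes marked by type II interferon were examined beside this. Of 8, 4 were higher in GMTMS-iCMs than in MICFs and 3 in the GMTMM-labelled library, against 11.5% and 8.07% of all genes. In either library 0 were lower, against 10.5% and 4.69% of all genes. Cxcl9, a chemokine induced by interferon gamma, had 16, 261 and 193 counts, and Gbp2, a GTPase, had 527, 3049 and 7190. Ciita, the regulator of MHC class II genes, had 138, 129 and 43 counts (differences of 0.40 and -0.51 from MICFs) and Nos2 431, 344 and 406 (0.25 and 0.13). Between the transduced libraries 0 of the 8 were called, and their median difference of GMTMS-iCMs from the GMTMM-labelled library was 0.41. Values were above 0 for 6 genes, among them Batf2 (0.93), Ciita (0.92) and Cxcl9 (0.70). The 6 include Ido1, which had 1, 0 and 0 counts, so its value comes from tied zeros and is no measured difference. The median of 0.41 includes it. They were below 0 for Socs1 (-0.77) and Gbp2 (-0.99). Isg20, which is not in this list, had -1.10 in the same comparison. The part of lymphocyte transcripts in these values was not tested.

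Toll-like receptors of the endosome, which sense nucleic acids, were lower in the GMTMM-labelled library for Tlr7 and Tlr8. These lie on chromosome X, and Tlr9 and Tlr3 do not. Tlr7 had 2935, 3034 and 1125 counts, Tlr8 1494, 1277 and 391 and Tlr9 416, 695 and 200, with differences from MICFs of 0.13, 0.01 and 1.14 in GMTMS-iCMs and -1.49, -1.84 and -0.73 in the GMTMM-labelled library. Tlr3, the endosomal receptor of double-stranded RNA, had 333, 230 and 267 counts and differed by 0.15 and -0.02. The 12 macrophage markers had medians of 0.27 and -0.66, and in the GMTMM-labelled library they ranged from -1.15 (Csf1r) to 0.11 (Itgam). The 2 called lower there were Csf1r (0.09 and -1.15) and Mrc1 (0.42 and -1.08). The parts of these markers and of the sex of the animals in the Tlr values were not tested.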
